A study of Mus musculus with 18 samples.

Results

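The cornified envelope genes of the mouse were followed in chronically irradiated skin (CHR), papillomas (PAP) and cutaneous squamous cell carcinomas (SCC). The set held every measured gene whose symbol begins with Sprr or with Lce and a digit, together with the single genes of the epidermal differentiation complex and of envelope assembly, namely filaggrin-2 and its relatives, Crnn, Lor, Ivl, Crct1, Kprp, Tgm1, Tgm3, Tgm5, Casp14, Asprv1, Cdsn, Evpl, Ppl, Lgals7 and Sbsn. Of 14521 named genes, 55 were members, and Flg was the 1 listed name with no row in the table used here. The complex is a cluster of genes on chromosome 3, and 45 members lay there between positions 92080271 and 93471980 of GRCm38, a stretch of 1392 kb from Lor to Tchhl1. The other 10 members lay on other chromosomes.

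RNA came from 6 female littermates of the outbred hairless strain SKH-1E, which lacks a working Hairless gene and is prone to tumours under ultraviolet light. All 3 groups share this strain and this exposure: every mouse received chronic UVB from a solar simulator from 3 months of age for 100 days and was sampled 14 days after the last exposure, so that CHR is irradiated skin and not untreated skin. Each mouse (numbers 2, 3, 7, 8, 9 and 10) gave 1 library of each kind, which made 18 libraries with n = 6 a group. Lesions had been graded by histology, and the methods name no dissection of epidermis from the tissue below it.

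The cornified envelope is the protein shell that replaces the plasma membrane when a keratinocyte dies to form the outer layer of the skin. Involucrin, envoplakin and periplakin lay down a scaffold under the membrane, loricrin, the small proline-rich (Sprr) and the late cornified envelope (Lce) proteins are added to it, and transglutaminases join them by covalent bonds. Proteins of the fused S100 family, such as filaggrin and hornerin, fill and bind the keratin inside the dying cell. In normal skin, loricrin, filaggrin and the Lce1 proteins belong to late differentiation, whereas Sprr and Lce3 proteins are known to be induced in wounded, inflamed or otherwise stressed epidermis.

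Recovered depth was 15.4 to 21 M reads a library, and the members together took 0.643% to 1.72% of reads in CHR, 0.503% to 1.26% in PAP and 0.443% to 1.11% in SCC. Values below are normalised reads, that is, recovered reads divided by the size factor of the library, and fold changes are log2 ratios on the compressed scale of the deposited values, given with their standard error. This scale compresses the changes of genes with few reads. The tissue of the groups differed. The summed level of 20 general keratinocyte genes, among them Krt5, Krt14 and Trp63, was 318007 to 490447 normalised reads in CHR, 745177 to 1270107 in PAP and 299215 to 851007 in SCC. A list of 15 skeletal muscle genes summed to 406300 to 611873 in CHR, 316 to 30580 in PAP and 416 to 201829 in SCC. Sums of 10 sebaceous gland genes were 64150 to 172069, 7987 to 16473 and 7396 to 22037 in the same order. In whole tissue such as this, fewer cells of a type and less RNA per cell cannot be told apart. Each result was therefore also computed after scaling every library to the keratinocyte list, which moved the median log2 fold change of all genes from 0.00 to -1.21 for PAP vs CHR, from -0.02 to -0.73 for SCC vs CHR and from -0.02 to 0.49 for SCC vs PAP. How far the makeup of the tissue contributes to a change in a member was not tested otherwise.

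The first question was how the envelope genes change between irradiated skin and a papilloma. They changed in both directions: in PAP vs CHR 19 of 55 members were higher, 19 were lower and 17 did not pass the test (limma, adjusted p under 0.05 over all genes). Among all genes, 22.8% were higher and 28.7% lower (51.5% in either direction), so that a call by itself was common in this comparison. Carcinomas had 20 members higher than CHR, 23 lower and 12 not called, against 15.1% and 21.4% of all genes (36.5% in either direction). Scaled to the keratinocyte list, 13 members were higher and 31 lower in papillomas (1.29% and 83.4% of all genes), and 19 higher and 29 lower in carcinomas (2.23% and 54.5%). A lower call after this scaling was thus common among all genes, and each one given below is to be read against these shares. The median log2 fold change of the members was -0.21 for papillomas and -0.48 for carcinomas, beside 0.00 and -0.02 over all genes. The 6 CHR libraries serve in both comparisons, and 18 members were higher and 19 lower in both. The papilloma libraries did not overlap CHR for 7 higher and 6 lower members (14.4% and 19.3% of all genes), and the carcinoma libraries for 7 higher and 13 lower members (8.57% and 11.3%).

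**Figure D1:**
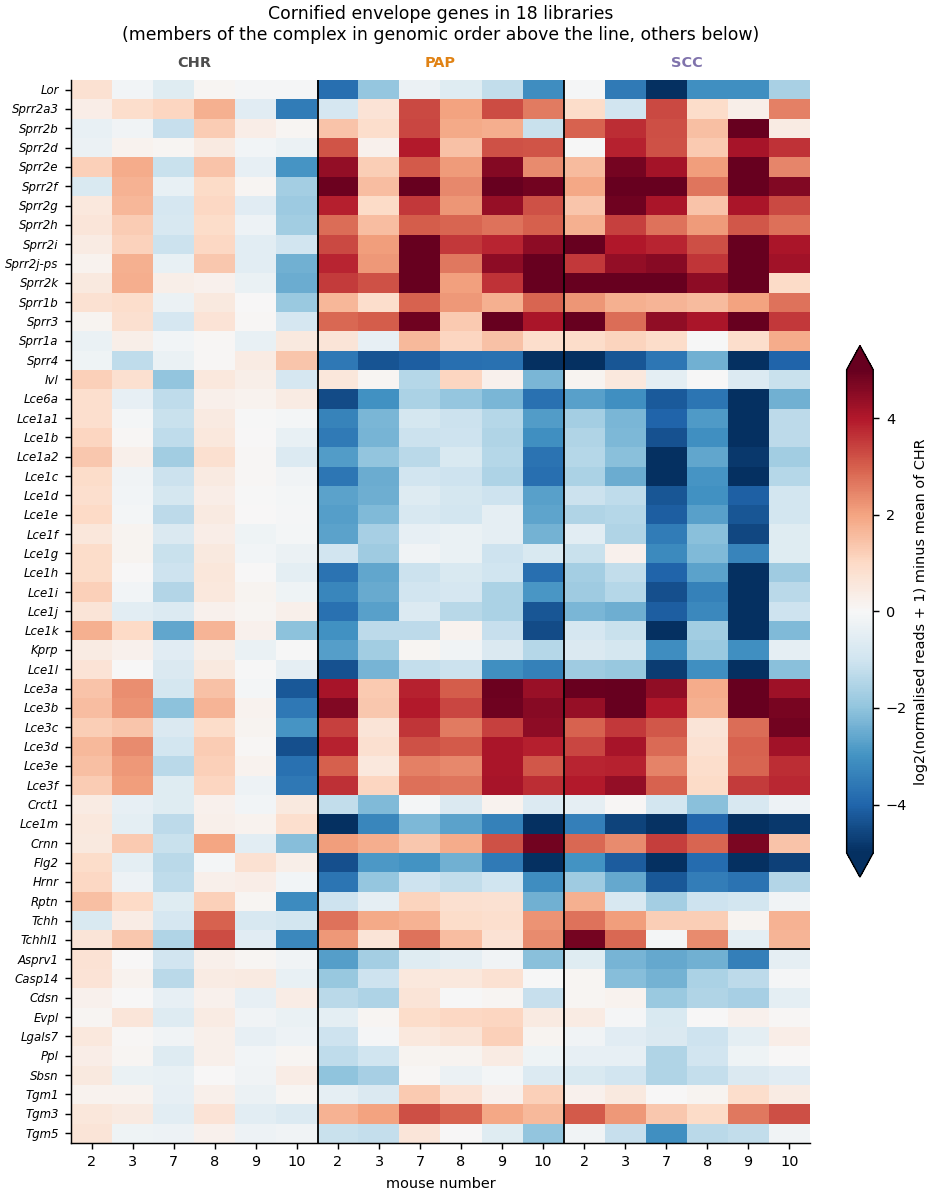
Level of the 55 members in 18 libraries. Columns are libraries, labelled by mouse number within CHR, PAP and SCC, rows are genes, and colour is log2(normalised reads + 1) minus the mean of the 6 CHR libraries. The Sprr2 and Lce3 genes are mostly red and the Lce1 genes, Flg2 and Sprr4 mostly blue in both lesions, and CHR of mouse 10 is blue for the Lce3 genes.

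The sign of the change followed the position in the complex in blocks. From Sprr2a3 to Sprr1a, 13 neighbouring genes had a positive fold change in both lesions, and 10 of them were called in PAP and 12 in SCC. From Sprr4 to Lce1l, all fold changes were negative. The 6 Lce3 genes that follow were positive, and Lce1m, on their far side, was negative again. Neighbours with related sequences can share reads, as given below for the families concerned.

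**Figure D2:**
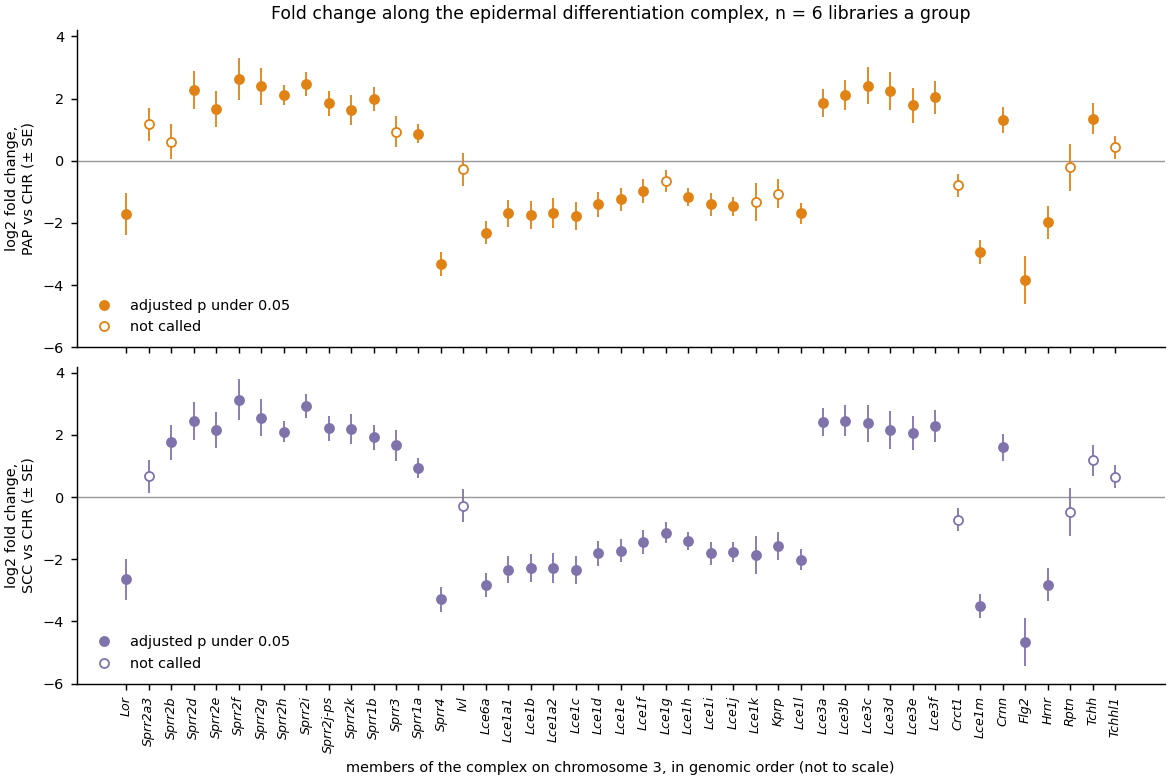
Log2 fold change (± SE, n = 6 libraries a group) of the 45 members on chromosome 3 in genomic order, for PAP vs CHR above and SCC vs CHR below. Filled points had an adjusted p under 0.05 in limma. A run of positive Sprr genes is followed by a run of negative genes from Sprr4 to Lce1l, 6 positive Lce3 genes and a negative Lce1m.

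The transglutaminases, which crosslink the envelope, differed from each other. Tgm3 (chr2:130012349-130050399), whose substrates include trichohyalin and small proline-rich proteins, stood at 1512, 2506 and 3879 normalised reads in CHR (lowest, median and highest of 6), at 7404, 9540 and 22590 in PAP and at 4665, 12865 and 22707 in SCC. Every lesion lay above every CHR library, and the fold change was 2.21 ± 0.40 in PAP (adjusted p = 0.000172) and 2.19 ± 0.40 in SCC (adjusted p = 0.000403). It remained higher when scaled to the keratinocyte list, by 1.05 and 1.53 on the log2 scale.

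Tgm1 is the membrane-bound enzyme whose loss causes ichthyosis. Its level was 2470, 3569 and 3862 in CHR, 1963, 4564 and 8087 in PAP and 3262, 4049 and 6073 in SCC, with overlapping groups. The fold changes of 0.37 ± 0.29 and 0.35 ± 0.29 were not called (adjusted p = 0.295 and 0.358), and after keratinocyte scaling they were -0.83 (adjusted p = 0.00895) and -0.34 (adjusted p = 0.282). The ratio of Tgm3 to Tgm1 reads, with no correction for length, was 0.433 to 1.0 in CHR, 0.994 to 4.99 in PAP and 1.30 to 5.33 in SCC. Only the papilloma of mouse 10 fell within the range of CHR.

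Tgm5, which acts on loricrin and involucrin, was at 1106, 1167 and 2085 in CHR, 340, 735 and 2000 in PAP and 155, 578 and 1167 in SCC. It fell by 1.06 ± 0.39 on the log2 scale in SCC (adjusted p = 0.0420) and stood at -0.65 ± 0.39 in PAP (adjusted p = 0.181). The call in SCC was lost with the mouse as block (adjusted p = 0.0701) and without any of mice 2, 3, 7, 8 and 9 (adjusted p from 0.0541 to 0.114), whereas Tgm5 was called lower in PAP without mouse 7 (adjusted p = 0.0234) and after keratinocyte scaling (-1.91, adjusted p = 0.000176).

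**Figure D3:**
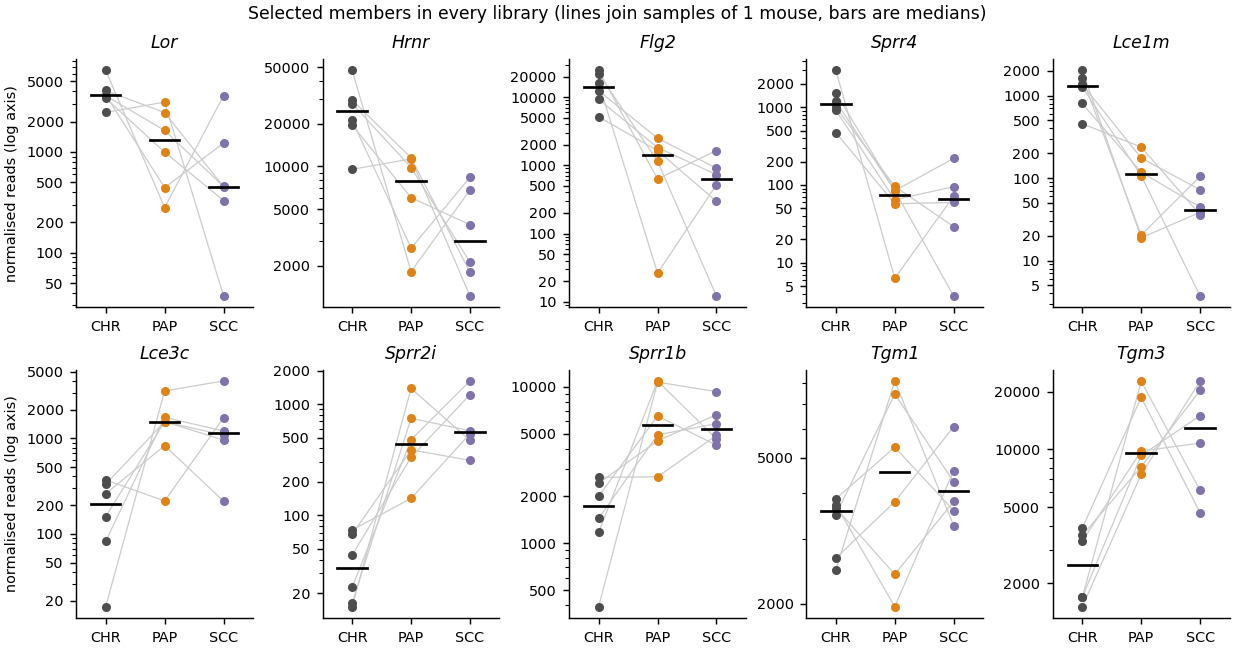
Normalised reads (log axis) of 10 members in every library. Points are libraries, grey lines join the samples of 1 mouse and bars are medians of 6. Sprr4, Lce1m and Flg2 are lower in all lesions than in all CHR libraries, Sprr2i, Sprr1b and Tgm3 are higher in all, and Tgm1 overlaps.

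Among the genes grouped as single envelope precursors, with which the lectin Lgals7 was counted, no member was called higher. Their median fold change was -0.78 in PAP and -0.84 in SCC. Loricrin (Lor, chr3:92080271-92083142), the main protein of the finished envelope, was at 2467, 3639 and 6445 normalised reads in CHR, 280, 1314 and 3119 in PAP and 37.1, 452 and 3617 in SCC. It fell by 1.71 ± 0.67 on the log2 scale in PAP (adjusted p = 0.0405) and by 2.65 ± 0.67 in SCC (adjusted p = 0.00528), and the highest lesions overlapped CHR, namely the papilloma of mouse 7 and the carcinoma of mouse 2. The call in PAP was lost with the mouse as block (adjusted p = 0.0701) and without any of mice 2, 3, 8, 9 and 10, with adjusted p from 0.0592 to 0.115. Over the 6 fits without 1 mouse its fold change was -2.12 to -1.21. That in SCC held in all of these fits.

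The promoter of Lor is shown to be read beside those of the Sprr2 genes given further on. The 220 bases come from RefSeq (GRCm38.p6), end 1 base before the annotated start, and carry in capitals every match, on either strand, to 3 motifs. The AP-1 motif was searched as TGANTCA. The TATA box was searched as TATAAA. The octamer, which POU factors bind, was searched as ATTTGCAT.
Lor (chr3:92083143-92083362, minus strand): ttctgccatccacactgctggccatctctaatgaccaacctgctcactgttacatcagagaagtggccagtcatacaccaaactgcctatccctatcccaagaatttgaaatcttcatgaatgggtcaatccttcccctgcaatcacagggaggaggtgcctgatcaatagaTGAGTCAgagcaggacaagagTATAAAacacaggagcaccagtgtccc

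Involucrin (Ivl), a scaffold protein laid down early, was at 545, 2822 and 4792 in CHR, 428, 2370 and 4485 in PAP and 975, 1782 and 3044 in SCC. The ranges overlapped throughout, and the fold changes of -0.27 ± 0.53 and -0.28 ± 0.53 were not called (adjusted p = 0.693 and 0.713), although Ivl was called lower in PAP after keratinocyte scaling (-1.49, adjusted p = 0.0224). Suprabasin (Sbsn), a transglutaminase substrate of the upper layers, was at 15639, 19513 and 28878 in CHR, 5049, 14565 and 21249 in PAP and 7238, 11265 and 13747 in SCC. It fell by 0.95 ± 0.31 in SCC (adjusted p = 0.0222), where no carcinoma reached the lowest CHR library, and the call was lost without mouse 8 (adjusted p = 0.0717). In PAP it fell by 0.78 ± 0.31 (adjusted p = 0.0411), a call lost with the mouse as block (adjusted p = 0.0569) and without any of mice 2, 3, 8 and 10 (adjusted p from 0.0604 to 0.214, fold change down to -0.44 in size).

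Keratinocyte proline-rich protein (Kprp) was at 1908, 3034 and 3728 in CHR, 416, 1382 and 3013 in PAP and 325, 1158 and 2048 in SCC. It fell by 1.57 ± 0.46 in SCC (adjusted p = 0.0134, or 0.0540 without mouse 9) and stood at -1.06 ± 0.46 in PAP (adjusted p = 0.0633, or 0.0205 without mouse 7). Galectin-7 (Lgals7), a lectin of stratified epithelia, was the most abundant gene of this group per kb of exon in CHR at 16849 normalised reads per kb. Its levels of 11477, 14636 and 22157 in CHR, 7412, 19385 and 34816 in PAP and 7498, 10673 and 18918 in SCC overlapped, and neither 0.23 ± 0.30 in PAP nor -0.44 ± 0.30 in SCC was called, while scaling to keratinocytes gave -0.97 and -1.14 (adjusted p = 0.00392 and 0.00328). Crct1 was not called in either lesion (-0.79 ± 0.37 and -0.73 ± 0.37), with adjusted p of 0.0495 in PAP without mouse 7 and 0.0400 in SCC without mouse 3. After keratinocyte scaling Crct1 was lower in both (-2.01 and -1.44, adjusted p = 0.000203 and 0.00639), and Kprp was also lower in PAP (-2.33, adjusted p = 7.05e-05).

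Most of the small proline-rich genes rose. Of 14 Sprr genes, 10 were higher and 1 lower in PAP, and 12 higher and 1 lower in SCC. Their proteins act as flexible bridges in the envelope, and their amount differs between epithelia under different mechanical load. The 10 Sprr2 genes summed to 356 to 1474 normalised reads in CHR (median 746), 1472 to 11283 in PAP (median 7336) and 2640 to 16981 in SCC (median 9225). All carcinomas lay above all CHR libraries, and the papilloma of mouse 3, at 1472, lay just under the CHR library of the same mouse, at 1474.

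Sprr2i was at 15.1, 33.3 and 73.9 in CHR, 142, 433 and 1384 in PAP and 312, 559 and 1615 in SCC. Neither lesion group overlapped CHR, and the fold change was 2.47 ± 0.40 in PAP (adjusted p = 6.93e-05) and 2.93 ± 0.40 in SCC (adjusted p = 3.51e-05). Sprr2f had the largest rise of all members on the compressed scale. On log2 normalised reads Sprr2k equalled it in PAP (4.06 each), and Sprr3 (4.94) and Sprr2k (4.78) exceeded it in SCC (4.62 for Sprr2f). The fold change of Sprr2f was 2.64 ± 0.67 in PAP (adjusted p = 0.00315) and 3.14 ± 0.67 in SCC (adjusted p = 0.00151). Sprr2f was at 7.68, 24.8 and 92.6 in CHR, 81.5, 820 and 1189 in PAP and 105, 1109 and 3049 in SCC, and the papilloma of mouse 3 alone fell within the range of CHR. Sprr2d, with 425 normalised reads per kb the most abundant Sprr2 gene per kb in CHR, was at 232, 281 and 384 in CHR, 329, 2524 and 4424 in PAP and 284, 3056 and 5014 in SCC. It rose by 2.28 ± 0.62 and 2.45 ± 0.62 (adjusted p = 0.00521 and 0.00525), and the papilloma of mouse 3 and the carcinoma of mouse 2 stayed within the range of CHR. After keratinocyte scaling Sprr2d was not called in PAP (1.31, adjusted p = 0.0880).

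Of the remaining Sprr2 genes, Sprr2e, Sprr2g, Sprr2h, Sprr2j-ps and Sprr2k were higher in both lesions and Sprr2b in SCC, with fold changes from 1.64 to 2.56. The call of Sprr2e in PAP was lost without mouse 7 or 10 (adjusted p from 0.0525 to 0.0742) and that of Sprr2b in SCC without mouse 3 (adjusted p = 0.0647). In limma-voom with size factors, Sprr2e and Sprr2k were not called in PAP (adjusted p = 0.0620 and 0.0505), nor Sprr2b in SCC (adjusted p = 0.0620). After keratinocyte scaling Sprr2e was not called in PAP (adjusted p = 0.0732). Sprr2a3 was not called (1.17 ± 0.54 and 0.67 ± 0.54), apart from PAP without mouse 2 (1.52, adjusted p = 0.0395). It shares 47.0% of its 76-base windows with other genes, foremost Sprr2a1, so its level is uncertain. Under keratinocyte scaling 6 of 10 Sprr2 genes were higher in PAP and 9 of 10 in SCC, and none was lower.

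Sprr1b and Sprr1a, inducible in squamous differentiation, were the most abundant of the rising Sprr genes per kb of exon, with 2021 and 5574 normalised reads per kb in CHR. Sprr1b was at 393, 1721 and 2636 normalised reads in CHR, 2657, 5716 and 10893 in PAP and 4230, 5347 and 9308 in SCC. No lesion overlapped CHR, and it rose by 1.99 ± 0.39 (adjusted p = 0.00044) and 1.92 ± 0.39 (adjusted p = 0.00115). Sprr1a was at 3348, 4276 and 6175 in CHR, 3309, 8635 and 13371 in PAP and 4272, 8343 and 15678 in SCC, with overlap in both. It rose by 0.87 ± 0.31 in PAP (adjusted p = 0.0247) and 0.94 ± 0.31 in SCC (adjusted p = 0.0240), but the sign turned under keratinocyte scaling in PAP (-0.32, adjusted p = 0.370) and the call was lost in SCC (0.25, adjusted p = 0.519). Its calls were lost without mouse 2, 7 or 9 in PAP (adjusted p from 0.0659 to 0.121) and in SCC (adjusted p from 0.0557 to 0.0777).

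Sprr3, a protein of the oesophagus and other internal squamous epithelia, was close to absent in irradiated skin, with 0 to 2 reads a library in CHR. It had 3.45, 21.4 and 79.1 normalised reads in PAP and 11.4, 33.2 and 1089 in SCC, every one above every CHR library. On the compressed scale it was called in SCC (1.67 ± 0.50, adjusted p = 0.0145) and not in PAP (0.93 ± 0.50, adjusted p = 0.128), where it was called on log2 normalised reads (adjusted p = 0.00314), in limma-voom with the mouse as block (adjusted p = 0.0204), after keratinocyte scaling (adjusted p = 0.0168), in the fit of only the groups compared (adjusted p = 0.00236) and without mouse 2 (adjusted p = 0.00459).

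Sprr4 (chr3:92500263-92500493) was the exception in the family. It was at 473, 1102 and 2990 normalised reads in CHR, 6.29, 74.5 and 95.9 in PAP and 3.71, 65.6 and 220 in SCC, so that every lesion was below every CHR library. Its log2 fold change was -3.32 ± 0.40 in PAP (adjusted p = 2.88e-06) and -3.29 ± 0.40 in SCC (adjusted p = 1.05e-05), and it was lower in 6 of 6 mice. Sprr4 lies next to Sprr1a, which has the opposite sign.

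The promoters of Sprr2d and Sprr2i, which rose, and of Sprr4, which fell, show what the windows upstream of these genes share, with capitals as for Lor.
Sprr2d (chr3:92338920-92339139, plus strand): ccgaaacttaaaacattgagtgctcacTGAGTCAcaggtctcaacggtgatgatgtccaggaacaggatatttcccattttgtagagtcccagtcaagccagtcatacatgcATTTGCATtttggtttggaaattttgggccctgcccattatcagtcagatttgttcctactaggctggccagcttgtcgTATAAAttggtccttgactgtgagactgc
Sprr2i (chr3:92407771-92407990, plus strand): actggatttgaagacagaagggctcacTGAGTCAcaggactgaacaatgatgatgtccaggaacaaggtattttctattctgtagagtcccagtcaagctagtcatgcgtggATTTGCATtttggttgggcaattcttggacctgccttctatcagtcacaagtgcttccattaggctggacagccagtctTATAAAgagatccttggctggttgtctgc
Sprr4 (chr3:92500494-92500713, minus strand): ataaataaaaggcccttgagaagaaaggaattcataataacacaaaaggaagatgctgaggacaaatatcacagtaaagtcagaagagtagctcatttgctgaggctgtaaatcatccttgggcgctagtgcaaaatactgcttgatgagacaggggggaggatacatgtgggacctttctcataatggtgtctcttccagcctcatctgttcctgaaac

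Of 48 members with a RefSeq promoter, 8 were Sprr2 genes, and 7 of these 8 held the AP-1 motif, the TATA box and the octamer in the 250 bases before the start. The octamer began 108 to 112 bases before the start and the TATA box 29 bases before it in these 7 genes. Among all 32841 promoters, the AP-1 motif was present in 6.75%, the TATA box in 12.4% and the octamer in 1.60%. Both Sprr1 promoters held an AP-1 motif and a TATA box and no octamer. None of the 3 occurred in the 220 bases printed for Sprr4. A match of letters is a description of the sequence and says nothing of binding.

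Late cornified envelope genes split by subfamily in each lesion, both set against the same CHR libraries. Of 14 Lce1 genes 12 were lower in PAP and 14 in SCC, whereas all 6 Lce3 genes were higher in both. Lce6a was lower in both. Under keratinocyte scaling all 14 Lce1 genes were lower in both lesions, as were 83.4% of all genes in PAP and 54.5% in SCC, and 4 of 6 Lce3 genes were higher in PAP and 6 of 6 in SCC. The median fold change was -1.43 and -1.84 for Lce1 and 2.08 and 2.34 for Lce3. In human skin, LCE1 genes are expressed in healthy epidermis, and LCE3 genes after barrier damage and in psoriasis.

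The reads of the 14 Lce1 genes summed to 3486 to 15423 in CHR (median 8003), 891 to 4058 in PAP (median 2280) and 207 to 2876 in SCC (median 1645). Those of the 6 Lce3 genes summed to 32.6 to 1788 in CHR (median 719), 775 to 7213 in PAP (median 4795) and 832 to 8945 in SCC (median 5193). Lesions and CHR overlapped in both sums, in Lce1 only between the papillomas of mice 7 and 8 and the CHR library of mouse 7. The ratio of the Lce3 sum to the Lce1 sum, read here only for how it moves between libraries, did not overlap: it was 0.00428 to 0.227 in CHR (median 0.0713), 0.479 to 7.70 in PAP (median 1.76) and 0.764 to 23.5 in SCC (median 3.25). It was higher in both lesions than in the skin of the same mouse in 6 of 6 mice.

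**Figure D4:**
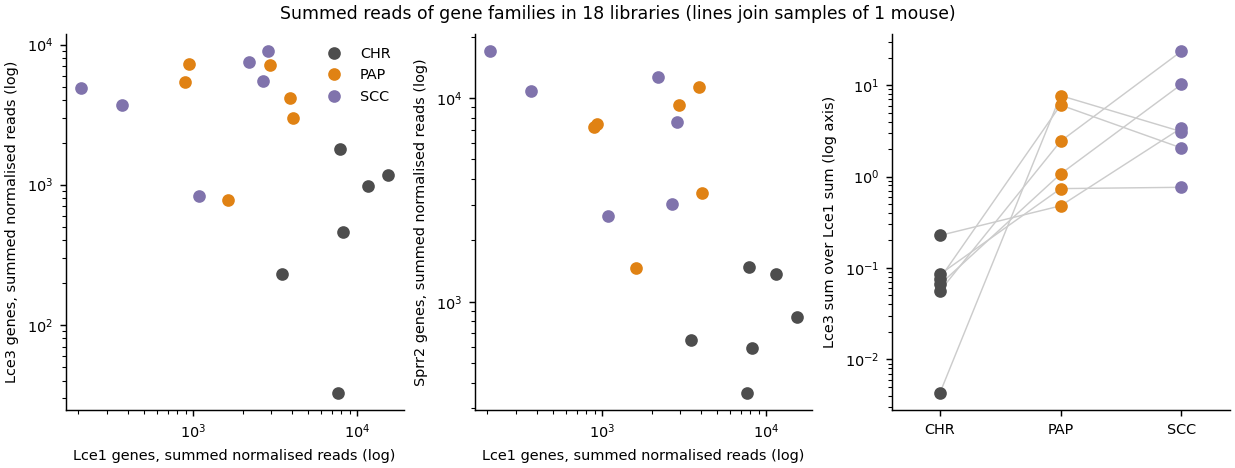
Summed normalised reads of the Lce1, Lce3 and Sprr2 genes in 18 libraries (log axes), with 1 point a library in the scatter plots, and the Lce3 to Lce1 ratio by group with lines joining the samples of 1 mouse. CHR libraries sit at high Lce1 and low Lce3, and their ratios of at most 0.227 lie under the lowest papilloma at 0.479.

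Lce1m (chr3:93017810-93019060) fell most among the Lce genes. It was at 456, 1317 and 2026 in CHR, 18.9, 112 and 238 in PAP and 3.71, 41.6 and 105 in SCC, without overlap. Its log2 fold change was -2.94 ± 0.38 in PAP (adjusted p = 7.06e-06) and -3.51 ± 0.38 in SCC (adjusted p = 5.63e-06). Lce6a, a single gene at the other end of the Lce1 block, was at 439, 1209 and 1889 in CHR, 46.7, 172 and 350 in PAP and 13.9, 104 and 195 in SCC. Its groups did not overlap CHR either, and it stood at -2.31 ± 0.38 (adjusted p = 7.51e-05) and -2.83 ± 0.38 (adjusted p = 2.86e-05).

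Lce1a1, with 1649 normalised reads per kb the most abundant Lce gene per kb in CHR, was at 499, 1034 and 1938 normalised reads in CHR, 104, 309 and 589 in PAP and 23.2, 185 and 431 in SCC. It fell in both lesions, with -1.69 ± 0.43 (adjusted p = 0.00329) and -2.33 ± 0.43 (adjusted p = 0.00047). The papilloma of mouse 7, at 589, was the highest lesion and lay above the CHR library of the same mouse, at 499, which was the lowest CHR library for all 14 Lce1 genes. The other Lce1 genes had fold changes from -1.79 to -0.65 in PAP and from -2.35 to -1.14 in SCC.

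Calls of some Lce1 genes rested on single mice. In PAP, Lce1f was not called with the mouse as block (adjusted p = 0.0679) or without any of mice 2, 3, 8 and 10 (adjusted p from 0.0604 to 0.142), nor Lce1e without mouse 2 (adjusted p = 0.0704), while Lce1k and Lce1g were called without mouse 7 (adjusted p = 0.0308 and 0.0414) and Lce1k also with the block (adjusted p = 0.0353). In SCC the calls of Lce1g were lost without mouse 2, 8 or 9 (adjusted p from 0.0514 to 0.0770) and those of Lce1k without mouse 3, 8 or 9 (adjusted p from 0.0566 to 0.103). The carcinoma of mouse 9 had the lowest level of 12 of the 14 Lce1 genes in SCC.

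Lce3c was at 17.3, 208 and 368 in CHR, 221, 1495 and 3140 in PAP and 220, 1139 and 3996 in SCC. It rose by 2.42 ± 0.60 in PAP (adjusted p = 0.00269) and 2.38 ± 0.60 in SCC (adjusted p = 0.00508), in 5 of 6 mice each. Lce3b rose by 2.12 ± 0.49 and 2.46 ± 0.49 (adjusted p = 0.00149 and 0.000847), from 0.960, 45.8 and 109 in CHR to 59.1, 460 and 673 in PAP and 79.9, 556 and 925 in SCC. In all 6 Lce3 genes the CHR library of mouse 10 was the lowest of CHR and that of mouse 3 the highest, and the papilloma of mouse 3 and the carcinoma of mouse 8 were the lowest of their groups.

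Lce3a rose by 1.86 ± 0.45 and 2.42 ± 0.45 (adjusted p = 0.00235 and 0.000532), and its CHR libraries ranged from 0 to 91.6. Lce3d rose by 2.25 ± 0.60 and 2.16 ± 0.60 (adjusted p = 0.00466 and 0.00986), with the call in SCC lost without mouse 10 (1.56, adjusted p = 0.0523) and that in PAP after keratinocyte scaling (adjusted p = 0.0501). Lce3e and Lce3f rose by 1.78 to 2.29, and the call of Lce3e in PAP was lost without mouse 7, 9 or 10 (adjusted p from 0.0510 to 0.0606) and after keratinocyte scaling (adjusted p = 0.113). Lce3c, Lce3d, Lce3e and Lce3f share 27.8% to 45.5% of their 76-base windows with other genes, mostly each other, so reads may be split among them and single values are uncertain. Lce3a and Lce3b share 9.07% and 5.95%.

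The promoters of Lce3c, which rose, and of Lce1a1 and Lce1m, which fell, are printed in the same way to set beside those of the Sprr2 genes. Lce1m carries a TATA box 29 bases before its start, and the other windows have no capitals.
Lce3c (chr3:92944266-92944485, plus strand): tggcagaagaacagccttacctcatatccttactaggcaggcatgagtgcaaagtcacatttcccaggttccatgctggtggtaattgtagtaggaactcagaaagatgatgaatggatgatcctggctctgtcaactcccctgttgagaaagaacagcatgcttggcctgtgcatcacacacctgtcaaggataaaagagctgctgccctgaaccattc
Lce1a1 (chr3:92648308-92648527, minus strand): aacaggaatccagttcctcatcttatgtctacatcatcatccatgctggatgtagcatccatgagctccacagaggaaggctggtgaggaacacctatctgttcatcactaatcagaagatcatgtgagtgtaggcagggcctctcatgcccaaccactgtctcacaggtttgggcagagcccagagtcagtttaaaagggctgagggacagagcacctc
Lce1m (chr3:93019062-93019281, minus strand): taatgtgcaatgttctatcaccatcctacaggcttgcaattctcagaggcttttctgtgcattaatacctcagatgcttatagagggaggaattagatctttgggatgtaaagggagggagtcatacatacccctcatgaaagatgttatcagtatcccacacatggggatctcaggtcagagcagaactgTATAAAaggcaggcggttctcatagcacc

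None of 13 Lce1 and none of 6 Lce3 promoters held the AP-1 motif or the octamer in 250 bases, and the letters of the TATA box were found in 2 of 13 and 1 of 6. The Lce1 matches were at positions -30 (Lce1d) and -29 (Lce1m) from the start. The Lce3 match, in Lce3e, was on the other strand at position -243, far from the usual place of a TATA box. Other motifs were also counted in this window. CCACCC, a KLF motif, was found in 14 of 48 members and in 28.1% of all promoters, TTGCNNAA, a C/EBP motif, in 7 of 48 and 9.57%, and AACCGGTT, a GRHL motif, in 0 of 48 and 0.116%. No match says only that these letters are not in this window.

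The fused S100 genes encode long repeat proteins with a calcium-binding head, and they went both ways. Filaggrin-2 (Flg2, chr3:93197278-93221391), which like filaggrin is broken down in the outer layer, had the largest fall of all members on the compressed scale. On log2 normalised reads Sprr4 fell more in PAP (-4.48 against -4.18 for Flg2), and Flg2 again most in SCC (-5.19). Flg2 was at 5143, 14252 and 24672 in CHR, 26.2, 1396 and 2498 in PAP and 12.1, 625 and 1649 in SCC. No lesion reached the lowest CHR library, and the fold change was -3.83 ± 0.78 in PAP (adjusted p = 0.000527) and -4.66 ± 0.78 in SCC (adjusted p = 0.000205), lower in 6 of 6 mice.

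Hornerin (Hrnr, chr3:93319749-93333570), a filaggrin-like protein, was at 9544, 24424 and 47535 in CHR, 1815, 7925 and 11506 in PAP and 1220, 2999 and 8379 in SCC. Carcinomas did not overlap CHR, and papillomas overlapped it through the CHR library of mouse 7. It fell by 1.98 ± 0.53 on the log2 scale in PAP (adjusted p = 0.00489) and by 2.82 ± 0.53 in SCC (adjusted p = 0.000569). Repetin (Rptn), between hornerin and trichohyalin in the complex, varied more within groups than between them, with 1620, 22005 and 41154 in CHR, 2732, 17518 and 31071 in PAP and 4448, 8008 and 50149 in SCC. Its fold changes of -0.21 ± 0.76 and -0.48 ± 0.76 were not called (adjusted p = 0.836 and 0.656).

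Cornulin (Crnn), best known from the oesophagus, was at 4.80, 25.3 and 97.8 in CHR, 62.6, 98.2 and 713 in PAP and 67.2, 184 and 658 in SCC. It rose by 1.31 ± 0.43 in PAP (adjusted p = 0.0171, or 0.0597 without mouse 10) and by 1.60 ± 0.43 in SCC (adjusted p = 0.00809), and after keratinocyte scaling it was called only in SCC. Trichohyalin (Tchh), a protein of the inner root sheath and of tongue and hoof epithelium, was at 102, 112 and 1509 in CHR, 345, 687 and 1284 in PAP and 214, 550 and 1295 in SCC. The highest value of all was in CHR of mouse 8, and the next CHR library was at 250.

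Trichohyalin rose by 1.36 ± 0.50 in PAP (adjusted p = 0.0293) and stood at 1.18 ± 0.50 in SCC (adjusted p = 0.0698). Without mouse 8 it was called in SCC (1.73, adjusted p = 0.00348), and its call in PAP was lost without mouse 2, 3, 7 or 10 (adjusted p from 0.0700 to 0.120) and after keratinocyte scaling (0.52, adjusted p = 0.396). A list of 14 measured genes, namely keratins of the hair shaft and inner root sheath together with Padi4, was set beside it. It summed to 287 to 2898 normalised reads in CHR, 86.0 to 222 in PAP and 58.2 to 851 in SCC, with 4 of the 14 at 0 reads in all papillomas. Much of this sum was Padi4, with means of 418 in CHR, 79.9 in PAP and 354 in SCC, so it is not a sum of hair keratins alone. Which cells carried Padi4 was not tested. No gene of that list was higher in either lesion, and 3, among them Padi4, were lower in PAP and 2 in SCC. Padi3 was not in that list but among the further cornification genes counted below. It was higher in SCC (2.62, adjusted p = 0.0154) and not called in PAP (1.48, adjusted p = 0.127). Tchhl1, a relative of trichohyalin, was not called (0.44 ± 0.37 and 0.65 ± 0.37).

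The proteases of the outer layer were lower or not called. Asprv1 (chr6:86628164-86629710), the retroviral-type protease that trims profilaggrin, was the most abundant member per kb of exon in CHR at 23943 normalised reads per kb. It was at 18276, 36622 and 57524 normalised reads in CHR, 5172, 16831 and 31361 in PAP and 3245, 6825 and 25836 in SCC, with overlap. It fell by 1.95 ± 0.51 in SCC (adjusted p = 0.00652). In PAP it fell by 1.29 ± 0.51 (adjusted p = 0.0412), a call lost with the mouse as block (adjusted p = 0.0772) and without any of mice 2, 3, 8 and 10 (adjusted p from 0.0626 to 0.154).

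Caspase-14 (Casp14), which completes filaggrin breakdown, was at 1501, 4683 and 6071 in CHR, 1026, 4605 and 6477 in PAP and 736, 1401 and 4059 in SCC. Its fold change was -0.18 ± 0.49 in PAP (adjusted p = 0.787) and -1.18 ± 0.49 in SCC (adjusted p = 0.0668), where it was called without mouse 2 or 10 (adjusted p = 0.0330 and 0.0472). After keratinocyte scaling it was called lower in both (adjusted p = 0.00761 and 0.00213).

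Envoplakin, periplakin and corneodesmosin were not called in any comparison. The plakins tie keratin filaments to the envelope, and corneodesmosin (Cdsn) holds the dead cells together. Cdsn was at 6156, 9006 and 10752 in CHR, 2820, 6023 and 12994 in PAP and 2296, 4431 and 9243 in SCC, with fold changes of -0.54 ± 0.40 and -0.86 ± 0.40 (adjusted p = 0.278 and 0.105). Evpl stood at 0.51 ± 0.27 and -0.02 ± 0.27, with a call in PAP without mouse 2 (0.73, adjusted p = 0.0314), and Ppl at -0.30 ± 0.29 and -0.58 ± 0.29. After keratinocyte scaling all 3 were called lower in both lesions, as were 83.4% of all genes in PAP and 54.5% in SCC.

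The second question was whether the envelope genes separate a carcinoma from a papilloma. In SCC vs PAP, 0 of 55 members were called in limma, where 5.58% of all genes were. At an unadjusted p under 0.05 there was 1 member, Lgals7 (-0.67 ± 0.30, unadjusted p = 0.0370, adjusted p = 0.187), named here after its value was seen, beside 3289 of all 14521 genes. The number of members at an unadjusted p under 0.05 was 11 without mouse 2, 10 without mouse 10, 3 after keratinocyte scaling and at most 2 in the other alternatives. Limma-voom on recovered reads called 0 members and 0 of all genes, with 1 member and 3089 genes at an unadjusted p under 0.05. Scaled to the keratinocyte list the count was still 0 (16.4% of all genes were higher and 0.0275% lower), and the lowest adjusted p over all alternatives was 0.0558, without mouse 2. No member had groups without overlap, against 0.255% of all genes higher and 0.165% lower. Of the 55 members, 37 had a lower fitted mean in SCC, as did 52.9% of all genes, and standard errors were 0.27 to 0.78 on the log2 scale. Fold changes were -0.94 ± 0.67 for Lor, -0.84 ± 0.53 for Hrnr, -0.64 ± 0.43 for Lce1a1, -1.0 ± 0.49 for Casp14 and 0.74 ± 0.50 for Sprr3. These values moved with single mice. Lor stood at -1.80 without mouse 2 and -0.13 without mouse 7, Hrnr at -1.39 and -0.39 without the same mice, and Lce1a1 at -1.01 without mouse 2 and -0.27 without mouse 9. Casp14 stood at -1.58 without mouse 2 and -0.65 without mouse 7, and Sprr3 at 0.07 without mouse 2. The medians were 0.41 for Sprr2, -0.49 for Lce1 and 0.27 for Lce3.

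Within mice the carcinoma and the papilloma differed in most members, but not in the same direction. In mice 2, 3 and 10, respectively 43, 42 and 40 of 55 members were higher in the carcinoma, and in mice 7, 8 and 9 only 9, 8 and 15. Over all genes the share higher in the carcinoma was 47.7% to 53.3% in the 6 mice. The Lce1 sum differed by 1.59, 0.44 and 1.62 on the log2 scale in mice 2, 3 and 10 and by -3.42, -1.90 and -3.83 in mice 7, 8 and 9. The Lce3 sum had the same signs with mostly smaller values, 0.03, 3.27 and 0.31 in mice 2, 3 and 10 and -0.17, -1.85 and -0.56 in mice 7, 8 and 9. The Sprr2 sum had other signs in mice 2 (-1.26) and 9 (0.87). These are values of single pairs of lesions, with no replicate of either lesion within a mouse and no test.

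Against the skin of the same mouse the direction was more uniform. The Lce1 sum was lower in the papilloma of 5 mice and 0.17 higher on the log2 scale in mouse 7, and lower in the carcinoma of all 6. The Lce3 sum was higher in the papilloma of 5 mice and lower in mouse 3 (-1.21), and higher in the carcinoma of 5 mice and lower in mouse 8 (-0.24). The Sprr2 sum was higher in the carcinoma of all 6 mice, by 0.94 to 4.84, and in the papilloma of 5, with no difference to 2 decimals in mouse 3.

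**Figure D5:**
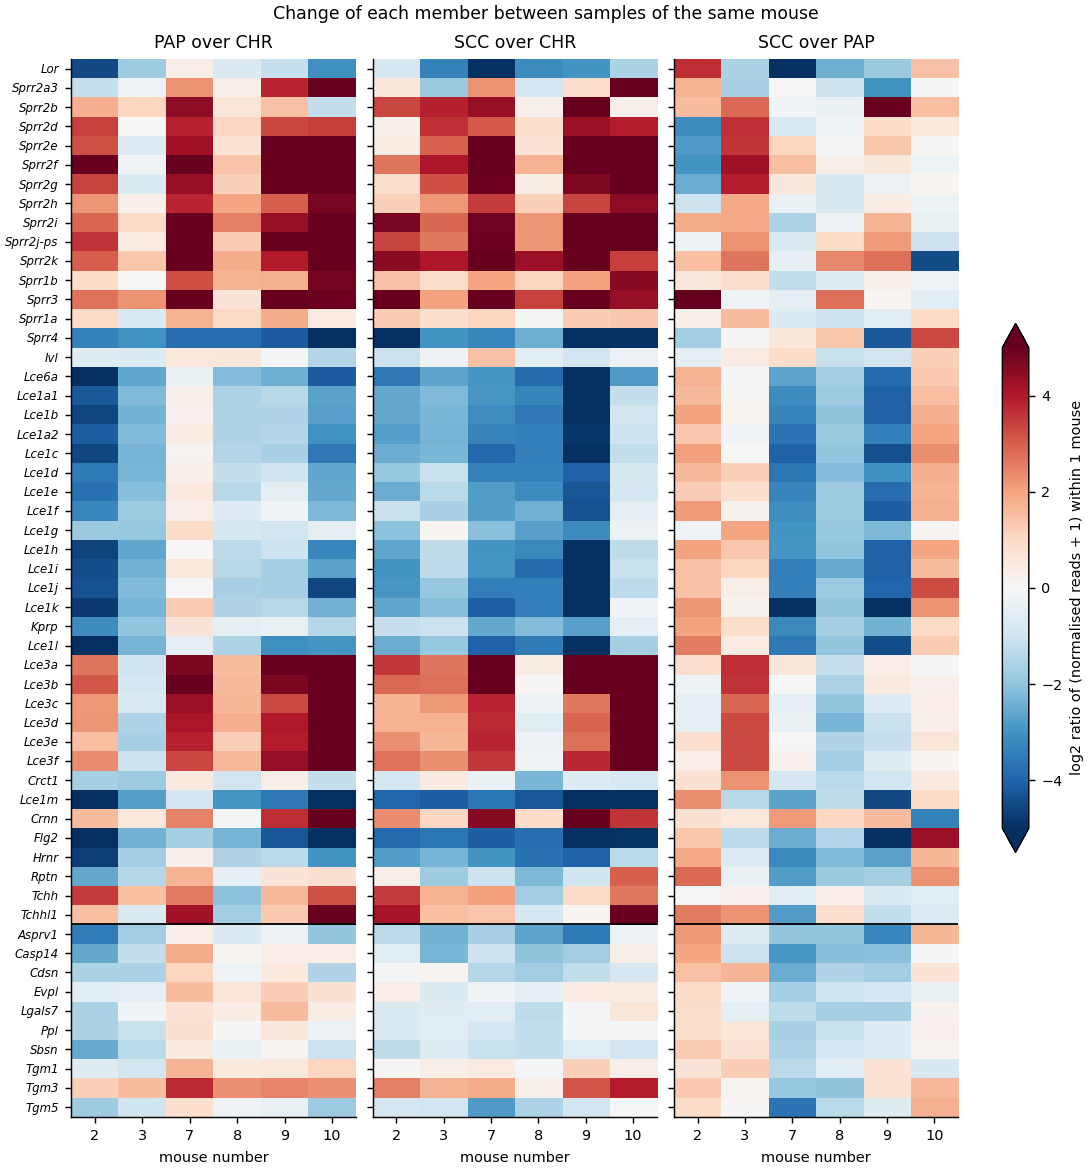
Log2 ratio of (normalised reads + 1) between the samples of each mouse, for the 55 members in genomic order, with members outside chromosome 3 under the line. Panels show PAP over CHR, SCC over CHR and SCC over PAP, and columns are mice. In the panel of SCC over PAP, the Lce1 genes are mostly red in mice 2, 3 and 10 and blue in mice 7, 8 and 9.

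Other genes of the same programme were counted from lists chosen with earlier results of these data known, to be read against all genes, of which 22.8% were higher and 28.7% lower in PAP and 15.1% and 21.4% in SCC. Of 6 keratins of the suprabasal layers, 4 were lower in PAP and 5 in SCC, and none was higher. Krt10, the acidic keratin of the differentiating layers, fell by 1.75 ± 0.66 on the log2 scale in PAP (adjusted p = 0.0344), and its partner Krt1 by 3.03 ± 0.83 in SCC (adjusted p = 0.00906). Krt77, a keratin of sweat ducts and of mouse suprabasal epidermis, fell by 4.42 in both lesions (SE 0.64, adjusted p = 1.99e-05 in PAP and 5.58e-05 in SCC). Its mean was 4605 normalised reads in CHR, 22.5 in PAP and 22.2 in SCC. The CHR libraries spread widely (SD 8696), and Krt77 was higher than CHR in 0 mice for either lesion. All 4 keratins of hyperproliferating epidermis were higher in PAP and 3 in SCC, and Krt6a rose by 2.15 ± 0.29 (adjusted p = 1.02e-05) and 1.54 ± 0.29 (adjusted p = 0.000545), and Krt6b by 2.66 ± 0.60 (adjusted p = 0.00137) and 2.01 ± 0.60 (adjusted p = 0.0147).

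Of 28 measured genes from a list of 30 further cornification genes, 7 were higher and 7 lower in PAP, and 6 higher and 7 lower in SCC, shares near those of all genes in PAP. The calprotectin genes S100a8 and S100a9 rose by 2.26 ± 0.65 and 2.40 ± 0.67 in PAP (adjusted p = 0.00750 and 0.00597) and by 2.62 ± 0.65 and 2.73 ± 0.67 in SCC (adjusted p = 0.00460 and 0.00400), but were not called in PAP after keratinocyte scaling. Mean normalised reads in SCC were 15249 (SD 18665) for S100a8 and 22611 (SD 33214) for S100a9. These genes are also expressed by neutrophils and monocytes, and which cells carried the rise was not tested. Of 9 measured myeloid genes, 8 were lower in PAP and 7 in SCC, a count that does not tell neutrophils from other myeloid cells. Cst6, an inhibitor of the cathepsins that process transglutaminase and loricrin, fell by 3.59 ± 0.59 and 3.74 ± 0.59 (adjusted p = 7.26e-05 and 0.000126). Ctsl, one of these cathepsins, fell by 1.70 ± 0.33 in PAP (adjusted p = 0.00033). Elovl4, which makes very long-chain lipids of the barrier, fell by 1.81 ± 0.33 in SCC (adjusted p = 0.000456).

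Of 20 transcription factors of epidermal differentiation, 5 were higher and 3 lower in PAP, 3 higher and 4 lower in SCC, and 12 and 13 not called, so that the shares higher in both lesions and lower in SCC were close to those of all genes. Tfap2a rose by 1.25 ± 0.17 in PAP (adjusted p = 1.01e-05) and 0.53 ± 0.17 in SCC (adjusted p = 0.0205). Klf4, a driver of late differentiation and barrier formation, rose by 0.88 ± 0.28 in PAP (adjusted p = 0.0142) and Nfe2l2 by 0.77 ± 0.21 in SCC (adjusted p = 0.00798). After keratinocyte scaling none of these calls held, and the sign turned for Klf4 in PAP (-0.31) and Tfap2a in SCC (-0.10). Pou2f3, a POU factor of suprabasal keratinocytes, fell by 1.31 ± 0.46 in PAP (adjusted p = 0.0227) and 2.14 ± 0.46 in SCC (adjusted p = 0.00152), and Rora by 0.95 ± 0.33 and 1.32 ± 0.33 (adjusted p = 0.0222 and 0.00473). Both were also lower after keratinocyte scaling, as were 83.4% of all genes in PAP and 54.5% in SCC.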

How the data were processed

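RNA-seq was carried out on 6 CHR, 6 PAP and 6 SCC samples. The authors aligned reads to mm10 with MOSAIK, counted them per gene with HTSeq and deposited 1 table of variance-stabilised values rounded to whole numbers, treated here as a score, on which 0 reads has the value 39. Strandedness is not given in the sources used here. Whole reads and size factors were recovered from these values, and depth was 15.4 to 21 M reads. With a tolerance of 0, 98.8% of values came out whole, and 100% of values under 100. At high values most whole numbers can be reached by some count, so the share over all values is a weak check. Low values can take only some whole numbers, but the size factors were fitted to them. Normalised reads are recovered reads over the size factor, and counting error is smallest for the genes with many reads. Of 14542 entries, 21 without a symbol were left out.

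log2(score + 1) was tested in limma 3.58.1 (R 4.3.3; recovery in Python 3.11.15, numpy 2.4.6, pandas 2.3.3) over all 18 libraries and 14521 genes, with Benjamini-Hochberg adjusted p under 0.05. The deposited values are no raw counts, so the count test of the study was not run on them. No filter on low values was set. On simulated data for PAP vs CHR (14521 genes, 200 changed), 90.5% of changed genes were recovered and 6.22% of calls were false. The simulation gave every gene the same dispersion and changed only genes above a minimum mean, by large steps. In the data 51.5% of genes were called in this comparison, so these rates need not hold for the members. Alternatives were the mouse as block, limma-voom on recovered reads, scaling to 20 keratinocyte genes, pseudocounts of 0 and 10, minimum reads of 10, only the groups compared, leaving out each mouse and, chosen after seeing the data, unscaled log2 normalised reads. CHR, PAP and SCC of 1 number come from the same mouse by the labels, so the block is a true pairing, although deviations of paired libraries correlated by only -0.24 to 0.51. No library pair was a duplicate (at most 2.24% equal values over 153 pairs).

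Members and lists were chosen with earlier results of these data known. Named by rule were, per role group and comparison, the 2 called members with the largest change in each direction, the member with the most normalised reads per kb, and always Lor, Ivl, Tgm1, Tgm3, Sprr1b, Sprr2d, Sprr3, Lce1a1, Lce3c and Casp14, with the 2 largest calls per direction from each pathway list. Other members were named after their values were seen. Positions are from GENCODE M21 (GRCm38) and promoters from RefSeq (GRCm38.p6), with 48 members matched.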

Additional observations from a re-analysis of the deposited data

Results flagged for a closer look

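In 7 of 165 groups of 6 libraries (55 members in 3 groups), 1 library stood apart from the other 5 by Dixon's criterion, which chance meets in about 1 in 20 groups. Sprr3 was at 1089 normalised reads in the carcinoma of mouse 2, with 84.4 in the next. Sprr2j-ps was at 988 in the carcinoma of mouse 9, above 240 in the next, and Tchh at 1509 in CHR of mouse 8, above 250. Low values were Sprr2h at 398 (next 898) and Lce3d at 175 (next 855) in the papilloma of mouse 3, Sprr4 at 6.29 (next 57.3) in the papilloma of mouse 10, and Lce3a at 66.1 (next 356) in the carcinoma of mouse 8.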

How the results depend on the processing

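With the mouse as block, 19 members were higher and 16 lower in PAP, and 20 higher and 22 lower in SCC. Requiring at least 10 reads in every library left 34 members and gave 9 higher in PAP and 8 in SCC. No call changed among the members left. The higher members removed in PAP were Lce3a, Lce3b, Lce3d, Lce3e, Lce3f, Sprr2e, Sprr2f, Sprr2j-ps, Sprr2k and Crnn. These had 0 to 8 reads in CHR of mouse 10, close to the floor. In SCC the filter also removed Sprr2b and Sprr3. Keratinocyte scaling gave 31 lower in PAP. Leaving out 1 mouse at a time gave 15 to 20 higher and 14 to 24 lower members in PAP, 19 to 21 and 19 to 24 in SCC, and 0 calls in SCC vs PAP. The sign turned under keratinocyte scaling for Sprr1a (-0.32), Lgals7 (-0.97) and Tgm1 (-0.83) in PAP and for Tgm1 (-0.34) in SCC. It turned without single mice in PAP for Rptn (-0.59 to 0.25), Lgals7 (-0.04 to 0.59) and Casp14 (-0.57 to 0.29), none of them called, and the cause was not tested. Under all alternatives, 14 of 19 lower and 11 of 19 higher calls held in PAP, and 18 of 23 and 17 of 20 in SCC, leaving out settings whose filter removed the gene. Single members in SCC vs PAP were followed by calls, of which there were 0 under every alternative. Limits are the compressed scale for genes with few reads, reads shared among Lce3 genes, by Sprr2a3 and to a smaller degree among Lce1 genes, whole-tissue samples, and 1 sample of each lesion a mouse.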
